A study of Rattus norvegicus with 8 samples.

Results

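Retinoic acid is the active form of vitamin A. Retinol is first oxidised to retinal, and retinal to retinoic acid by the dehydrogenases of the Aldh1a family. In the cytoplasm it is carried by the binding proteins Crabp1 and Crabp2, in the nucleus it acts through the receptors Rara, Rarb and Rarg, which bind DNA together with RXR partners, and it is cleared by the cytochrome P450 enzymes of the Cyp26 family. In the testis it is known as the signal that moves spermatogonia into differentiation and germ cells into meiosis. The results concern 9 genes of this pathway, taken by symbol from a fixed list: Aldh1a1 and Aldh1a2 for synthesis, Crabp1 and Crabp2 for binding, Rara, Rarb and Rarg as receptors, and Cyp26a1 and Cyp26b1 for breakdown. All 9 were among the 16764 gene symbols of the count table, and all 9 passed the expression filter, as did 12210 genes in all.

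RNA was sequenced from germ cells of Brown Norway rats in 3 groups of 2 libraries. Undifferentiated spermatogonia (USg) were a spermatogonial stem cell line expanded in SG medium, with 0 h in SD medium. Differentiating spermatogonia (DSg) were the same line after 7 days on laminin, of which 120 h were in SD medium, a medium supplied with neuregulin-1 and with all-trans retinoic acid. DSg cells had therefore been given the ligand of this pathway, together with neuregulin-1, a laminin substrate and any difference in time, and these cannot be told apart. The titles of USg and DSg samples both carry T120, whereas the protocol places USg RNA before plating on laminin, so it is not settled whether the 2 groups were matched for time. The spermatocyte-enriched group (Spc) held primary testis cells that did not bind laminin, obtained by negative selection on 3 surfaces (plastic, collagen-I, laminin) and cultured 2.5 days with 10% serum, so that stage, source and culture differ together from the line. Nothing in the labels ties the Spc libraries to separate animals, and p-values measure the spread between libraries only.

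Total counts ran from 2657291 to 5697165 per library. Germ cell markers (Ddx4, Dazl, Mael and Tex101) were present in every library at a summed 1234 to 2608 CPM (counts scaled to a common library size with TMM factors). Markers of undifferentiated spermatogonia summed to 1527 and 1745 CPM in USg, 272 and 279 in DSg and 61.3 and 63.4 in Spc, and spermatocyte markers to 5626 and 6367 CPM in Spc against 464 to 930 in the line. Of 3 markers of differentiating spermatogonia 1 was higher in DSg than in USg, Kit at 579 against 74.6 CPM. Sohlh1 stood at 66.8 CPM in DSg and 95.1 in USg, and Dmrtb1 was highest in Spc (13.7 CPM), so that the DSg label rests on Kit in this list. The share of ribosomal RNA was 12.4% in DSg 1 and 7.80% in USg 1, whereas the remaining 4 libraries had 0.00295% to 0.733%. In DSg 2, 96.7% of 1044 olfactory receptor genes had a count, and their 95th percentile was 10 counts, or 2.69 CPM. In the other 5 libraries 23.4% to 64.1% of them had a count, with a 95th percentile of 2 to 4 counts. A member with few counts in DSg 2 is read against that level.

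Breakdown and synthesis genes stood high in different groups. Cyp26a1 and Cyp26b1 rose in DSg, Rarb was high in both DSg libraries and low in all others, and all 3 were lower in Spc than in DSg. Aldh1a1 and Aldh1a2 rose in Spc, by 27.6-fold and 4.91-fold over USg. Crabp1 fell from USg to Spc, Rara was lower in Spc than in DSg, and Rarg and Crabp2 passed the threshold nowhere. By the quasi-likelihood test of edgeR with Benjamini-Hochberg adjustment at 0.05, 2 of 9 genes were higher and 0 lower in DSg than in USg, where 0.565% of all tested genes were higher and 1.92% lower. Between Spc and USg 2 were higher and 1 lower, against 17.9% and 16.6% of all genes, and between Spc and DSg 2 were higher and 5 lower, against 14.8% and 11.7%. The median log2 fold change of the 9 genes was 0.51 for DSg vs USg, 0.65 for Spc vs USg and -1.12 for Spc vs DSg, beside 0.01, -0.04 and -0.03 over all tested genes. The ranges of the 2 groups did not overlap for 4 of the 9 genes between DSg and USg, 5 between Spc and USg and 7 between Spc and DSg. Over all tested genes this held for 42.3%, 72.4% and 71.1%, so that such separation was common. The 3 comparisons share libraries and are not independent of each other.

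**Figure D1:**
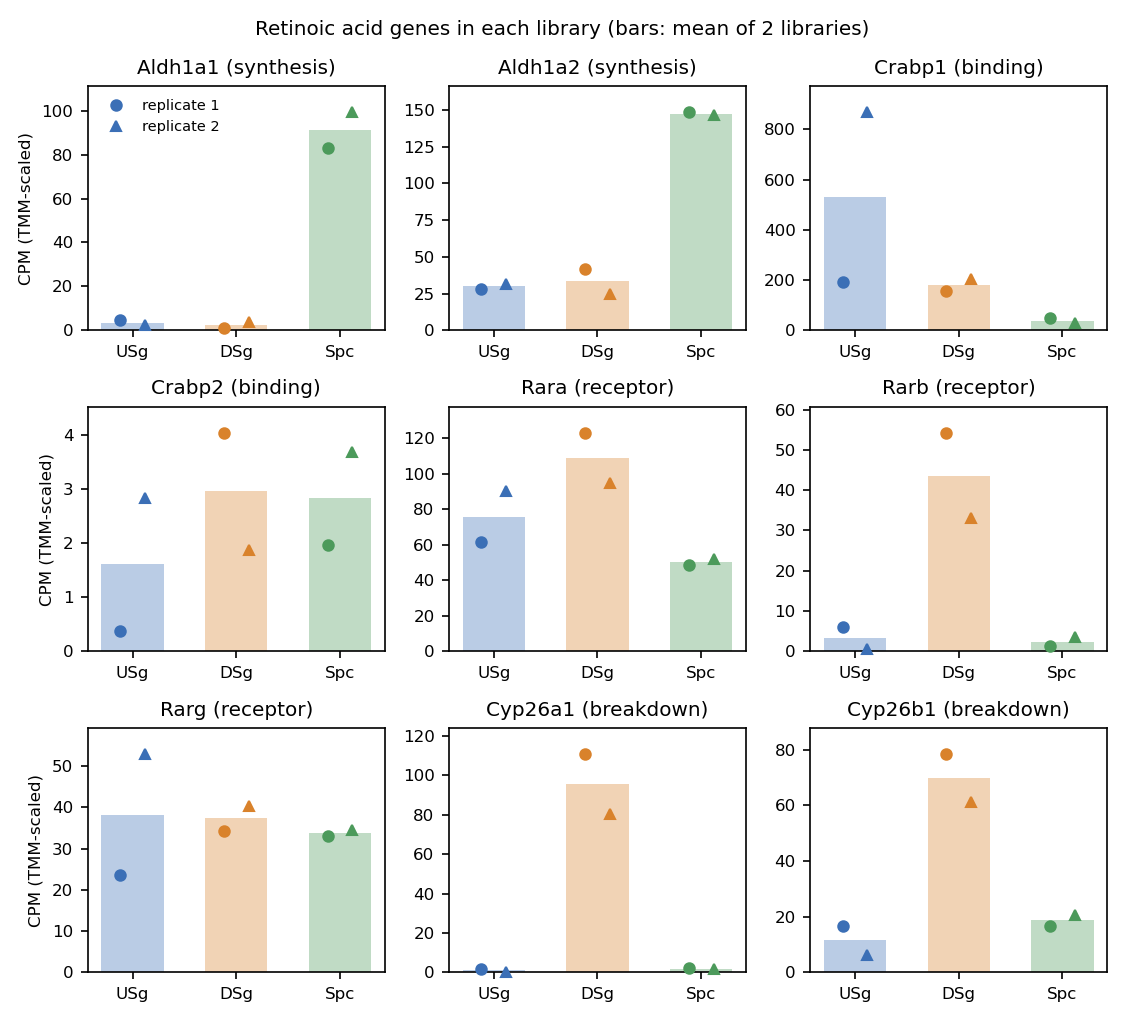
Level of each of the 9 genes by group, in CPM scaled by TMM factors on a linear axis from 0. Bars are the mean of 2 libraries, circles replicate 1 and triangles replicate 2. Cyp26a1, Cyp26b1 and Rarb stand high in DSg, Aldh1a1 and Aldh1a2 in Spc, and the 2 USg libraries of Crabp1 lie at 191 and 868 CPM.

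The question for the synthesis enzymes was whether the cells of each stage carry the means to make retinoic acid. Aldh1a1 stood at 4.63 and 2.31 CPM in USg, 1.21 and 4.04 in DSg, and 82.8 and 99.3 in Spc. It was low in all 4 libraries of the line, at 3 to 15 counts each, and high in both primary libraries. The log2 fold change was 4.79 ± 0.55 (SE) for Spc vs USg (edgeR adjusted p = 0.000437) and 5.02 ± 0.56 for Spc vs DSg (adjusted p = 0.000588), whereas DSg and USg did not separate (-0.23 ± 0.61, adjusted p = 0.874). The 15 counts in DSg 2 lie close to the olfactory receptor level of that library.

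Aldh1a2 was measured throughout, at 28.2 and 31.7 CPM in USg, 42.0 and 24.8 in DSg and 148 and 147 in Spc. The USg values lay between those of DSg, and both Spc libraries lay above all others. The rise in Spc was 2.30 ± 0.36 over USg (edgeR adjusted p = 0.00171) and 2.15 ± 0.36 over DSg (adjusted p = 0.00339), and the difference between DSg and USg was 0.15 ± 0.35 (adjusted p = 0.856). The value against DSg was 6.19 for Aldh1a1 without DSg 2 and 2.75 for Aldh1a2 without DSg 1. Both synthesis genes kept these calls in Spc under each of the 13 alternatives run, Aldh1a1 at adjusted p from 3.57e-16 to 0.0103 and Aldh1a2 from 4.33e-07 to 0.0262.

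Markers of several somatic testis cell types were also higher in Spc, whereas endothelial markers were mostly lower. Of 10 Sertoli cell markers 8 were tested, of which 5 rose against USg and 0 fell, where 17.9% of all genes were higher and 16.6% lower. The list summed to 1906 and 1671 CPM in Spc against 419 and 463 in USg and 276 and 232 in DSg. Wt1 stood at 49.8 CPM in Spc against 3.18 in USg, and Gata4 at 68.7 against 2.30. Fshr, at 5.38 CPM in Spc and 0.861 in USg, did not pass the threshold, and Amh (2.81 and 1.29) was not tested. Sox9 stood at 47.7 CPM in Spc and 56.4 in USg, and Inhbb was highest in DSg (19.0 CPM, against 10.6 in Spc). No marker of the list was at 0 in Spc. All 5 peritubular myoid markers rose (462 and 490 CPM in Spc, 42.1 and 58.6 in USg). So did 3 of 4 tested fibroblast markers, led by Dcn and Col3a1. Of 4 tested macrophage markers 3 rose against USg and 1 against DSg. That list summed to 53.2 and 66.2 CPM in Spc, 15.8 and 8.37 in USg and 7.27 and 32.0 in DSg. Of Leydig markers 1 of 3 rose, Star at 164 CPM, which makes up nearly all of the Leydig sum. Cyp11a1 was lower in Spc than in DSg (0.938 against 5.99 CPM, edgeR adjusted p = 0.0356), and Insl3 had 1 count in Spc 1 and 0 in Spc 2. Of 3 endothelial markers Pecam1 (-3.63) and Kdr (-1.82) fell against USg and Cdh5 rose (3.16), and the list summed to 22.7 and 28.5 CPM in Spc against 170.2 and 100.2 in USg. In mouse testis Aldh1a1 is known from Sertoli and Leydig cells and Aldh1a2 from spermatocytes. The part of somatic cells in the higher Aldh1a1 and Aldh1a2 was not tested, and in bulk RNA more cells of a type and more RNA per cell cannot be told apart.

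**Figure D2:**
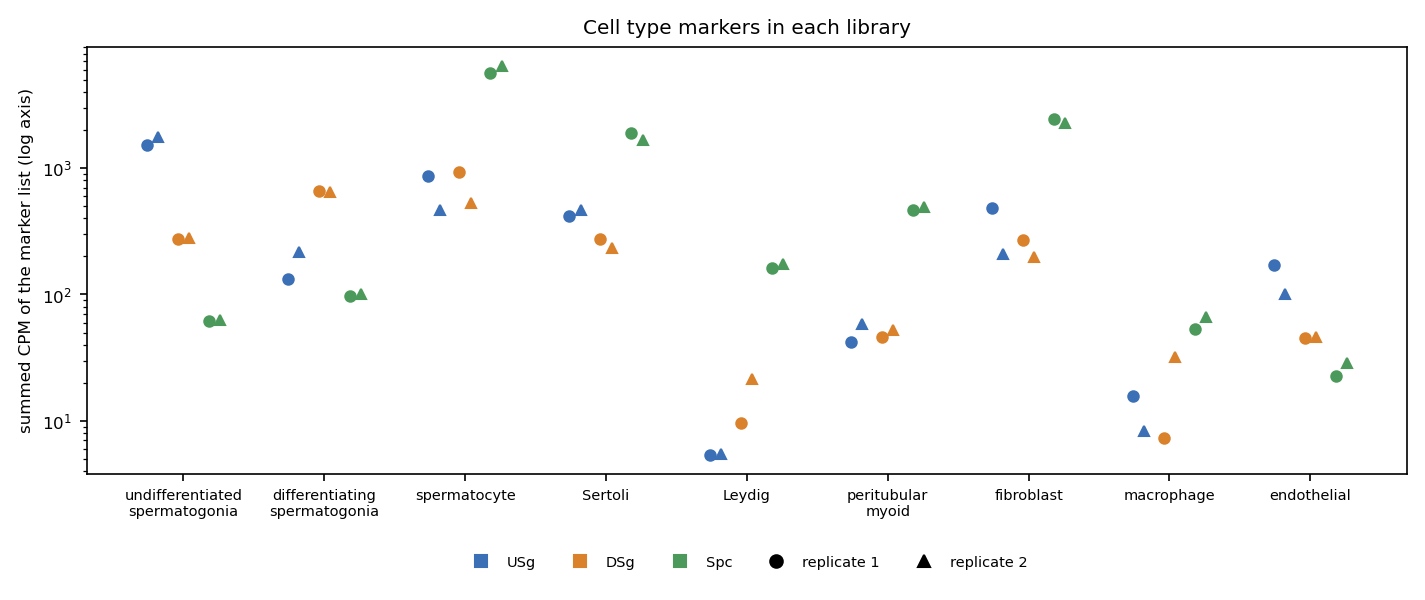
Summed CPM of each cell type marker list in each library, on a log axis, with circles for replicate 1 and triangles for replicate 2. The sums for spermatocyte, Sertoli, Leydig (nearly all Star), peritubular myoid, fibroblast and macrophage markers are highest in the 2 Spc libraries. That for endothelial markers is lowest there, and markers of undifferentiated spermatogonia fall from USg over DSg to Spc.

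The binding protein Crabp1, which holds retinoic acid in the cytoplasm, was uneven between the replicates of USg. It stood at 191 CPM in USg 1 and 868 in USg 2, at 158 and 206 in DSg, and at 47.9 and 29.8 in Spc. The DSg range included USg 1, and both Spc libraries lay below all 4 libraries of the line. Crabp1 was lower in Spc than in USg by a log2 fold change of -3.77 ± 0.66 (edgeR adjusted p = 0.00300) and lower than in DSg by -2.23 ± 0.63 (adjusted p = 0.0301). For DSg vs USg the value was -1.54 ± 0.61 (adjusted p = 0.218), and it was -2.40 without USg 1 and -0.13 without USg 2, so that its size rested on which USg library was kept. Over 13 alternatives its adjusted p ran from 0.00322 to 0.920, passing without USg 1, without Spc 1 and with no filter. The call against DSg ended without DSg 1, DSg 2 or Spc 2 (adjusted p from 0.000101 to 0.134 over the alternatives), and that against USg held under all 13, with a value of -4.52 without USg 1 and -2.28 without USg 2.

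Crabp2, which delivers retinoic acid to its receptors in the nucleus, was close to the limit of detection. Its counts were 1 and 16 in USg, 10 and 7 in DSg and 10 and 17 in Spc. The 3 groups overlapped, and the 7 counts in DSg 2 lay under the 95th percentile of olfactory receptor genes in that library. No difference was detectable at this depth: the log2 fold change for DSg vs USg was 0.68 ± 1.00 (edgeR adjusted p = 0.747), for Spc vs USg 0.65 ± 0.96 (adjusted p = 0.629) and for Spc vs DSg -0.03 ± 0.96 (adjusted p = 0.982).

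Among the receptors, Rara stood at 61.4 and 90.5 CPM in USg, 123 and 94.8 in DSg and 48.5 and 51.8 in Spc. The ranges of the 3 groups did not overlap, with DSg highest and Spc lowest, yet the spread within USg and DSg was wide. Separation of 2 groups was common over all tested genes (42.3% for DSg vs USg, 72.4% for Spc vs USg and 71.1% for Spc vs DSg). The fall from DSg to Spc passed the threshold (-1.12 ± 0.33, edgeR adjusted p = 0.0374), whereas DSg vs USg (0.51 ± 0.33, adjusted p = 0.430) and Spc vs USg (-0.60 ± 0.33, adjusted p = 0.188) did not. This call ended with no filter and when DSg 1, DSg 2, Spc 1 or Spc 2 was left out, with adjusted p from 0.00956 to 0.415 over 13 alternatives.

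Rarb, itself a textbook target of retinoic acid, stood at 54.1 and 33.1 CPM in DSg, against 6.17 and 0.534 in USg and 1.38 and 3.48 in Spc. The counts were 134 and 123 in DSg and 3 to 16 in the other libraries. Both DSg libraries lay above the other 4, and within USg the first library was the higher. The fall to Spc was -4.16 ± 0.87 (edgeR adjusted p = 0.00893). The difference of DSg from USg was 3.91 ± 0.88 and missed the threshold at an adjusted p of 0.0569. Over the 13 alternatives this adjusted p ran from 8.77e-08 to 0.215. Rarb passed as higher with DESeq2, with no filter, with the replicate number as a block (adjusted p = 0.00673) and without USg 1, USg 2, Spc 1 or Spc 2. Its log2 fold change moved from 2.77 without USg 2 to 6.16 without USg 1. The fall to Spc was -4.90 without Spc 2, and its call ended without DSg 1 (adjusted p = 0.0601, with a range of 4.80e-10 to 0.0601). Spc and USg were not separated (-0.25 ± 0.96, adjusted p = 0.857).

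Rarg, the receptor known for its role in spermatogonial differentiation in the mouse, did not separate the groups. It stood at 23.5 and 52.9 CPM in USg, 34.3 and 40.4 in DSg and 33.1 and 34.4 in Spc. The values of DSg and Spc all lay between the 2 USg libraries. The log2 fold changes were -0.04 ± 0.42 for DSg vs USg (edgeR adjusted p = 0.967), -0.19 ± 0.41 for Spc vs USg (adjusted p = 0.741) and -0.15 ± 0.42 for Spc vs DSg (adjusted p = 0.816). The sign for DSg vs USg turned to 0.12 with total-count scaling, so no direction can be given for Rarg.

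**Figure D3:**
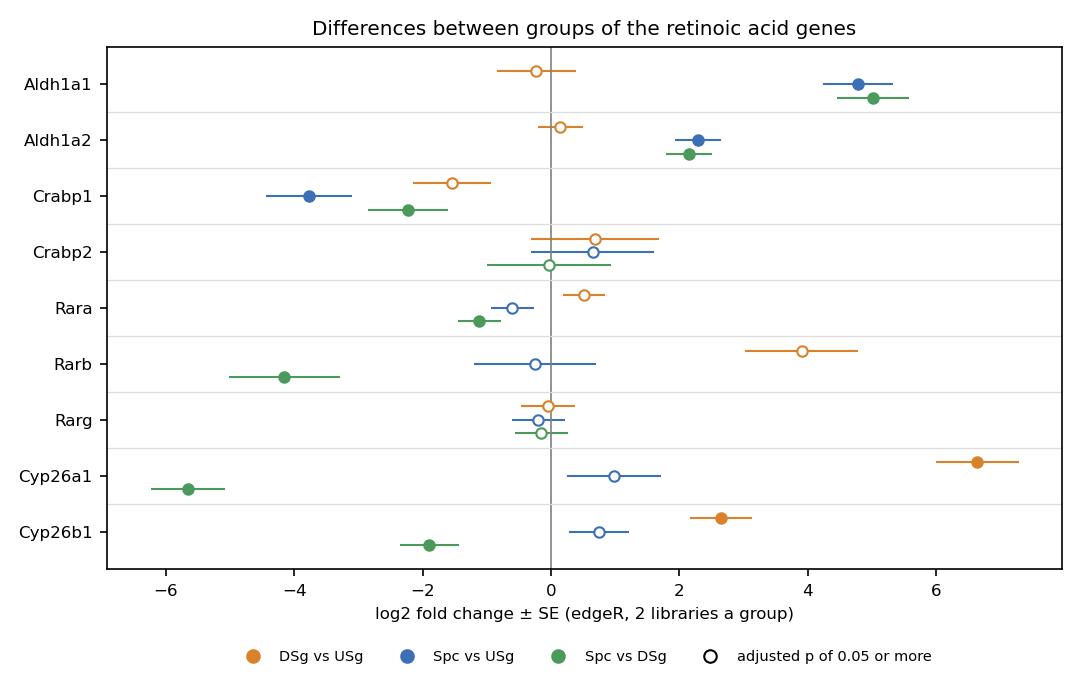
Log2 fold change ± SE of the 9 genes in the 3 comparisons, from 1 edgeR fit of 6 libraries. Filled points have an adjusted p under 0.05 and open points do not. The points of Cyp26a1, Rarb and Cyp26b1 lie to the right for DSg vs USg and to the left for Spc vs DSg, with Rarb open in the first (adjusted p = 0.0569), and those of Aldh1a1 and Aldh1a2 to the right for both comparisons of Spc.

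Of the breakdown enzymes, Cyp26a1, whose gene is switched on by retinoic acid itself in many tissues, had the largest difference of the 9 genes. It stood at 1.93 and 0.356 CPM in USg, 111 and 80.5 in DSg and 2.17 and 1.52 in Spc. The counts were 5 and 2 in USg and 274 and 299 in DSg, and the USg counts were within reach of the 95th percentile of olfactory receptor genes there, at 3 and 2. The rise from USg to DSg was 6.65 ± 0.64, a fitted 100.1-fold (edgeR adjusted p = 0.00555), and the fall from DSg to Spc -5.66 ± 0.58 (adjusted p = 0.000405). Without USg 1 the rise was 7.84 and without USg 2 it was 5.56, so that the size of the fold rests on a few counts in USg. Spc and USg were not separated (0.98 ± 0.74, adjusted p = 0.326), and without USg 2 that value was -0.04.

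Cyp26b1, known from the fetal testis for keeping germ cells out of meiosis, was measured in all libraries. It stood at 16.6 and 6.41 CPM in USg, 78.4 and 61.1 in DSg and 16.8 and 20.7 in Spc. Both DSg libraries lay above all others, and USg 1 lay close to Spc 1. The rise in DSg was 2.65 ± 0.48, a fitted 6.26-fold (edgeR adjusted p = 0.0308), the fall to Spc -1.90 ± 0.46 (adjusted p = 0.0169), and Spc vs USg 0.75 ± 0.47 (adjusted p = 0.245). The rise in DSg was 3.31 without USg 1 and 2.02 without USg 2. Spc passed as higher than USg without USg 1 (adjusted p = 0.0261, the lowest of a range up to 0.798).

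No gene of the whole table passed the threshold for DSg vs USg when DSg 1 or DSg 2 was left out. Cyp26a1 then had adjusted p-values of 0.0762 and 0.127, its range over 13 alternatives being 5.69e-18 to 0.127, and it kept its call under the other 11. Cyp26b1 also lost its call in the fit of only the 4 libraries compared (adjusted p = 0.0669, with a range of 5.31e-05 to 0.191). For Spc vs DSg, Cyp26a1 kept its call under all 13 alternatives, and Cyp26b1 lost it without DSg 1, DSg 2 or Spc 1 (adjusted p from 0.00120 to 0.108).

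Cyp26a1 and Rarb, which had the 2 highest log2 fold changes of the 9 genes in DSg, also shared a sequence feature. Retinoic acid receptors and their RXR partners are known to bind direct repeats of a short half-site, often with a spacer of 5 bases (DR5). The window around each annotated start site, 250 bases before to 50 after it, was taken from RefSeq (build GRCr8, which is not the build of the counts), with 10 windows for the 9 genes since Rarg has 2 start sites. The half-site searched was AGGTCA as the main form, with AGTTCA as another form, GGGTCA as a further form and also the form GGTTCA. Any pair of forms was allowed, on both strands, with spacers of 1, 2 or 5 bases. A DR5 was found in 2 of the 10 windows, those of Cyp26a1 and Rarb, and repeats with spacers of 1 or 2 bases in 0 of 10. Among all 33469 windows, 0.382% held a DR5, 0.233% a repeat with a spacer of 1 base and 0.17% one with 2. Both genes were known beforehand as targets of retinoic acid. These shares are therefore a description and not a test. The pair of elements is shown 5′ to 3′ on its own strand, with the half-sites in capitals and the spacer in lower case.
Cyp26a1: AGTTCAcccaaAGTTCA
Rarb: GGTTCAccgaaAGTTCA

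The element of Cyp26a1 lies on chromosome 1 at chr1:244883730-244883746, 92 to 76 bases before the annotated start site and on the strand opposite to the gene. That of Rarb lies on chromosome 15 at chr15:11336416-11336432, 25 to 41 bases after the first base of the annotated transcript counted as 1, on the strand of the gene. The 250 bases before the Cyp26a1 start site (chr1:244883572-244883821, plus strand) are shown to place the element in its promoter, in the direction of the gene, with the same element in capitals as it reads on this strand.
Cyp26a1 promoter: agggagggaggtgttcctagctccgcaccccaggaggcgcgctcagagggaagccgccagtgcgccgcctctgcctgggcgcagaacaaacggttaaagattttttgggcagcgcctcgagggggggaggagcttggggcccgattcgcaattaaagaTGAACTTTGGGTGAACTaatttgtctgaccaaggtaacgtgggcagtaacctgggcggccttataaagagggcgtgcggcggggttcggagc

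No such element was found in the windows of Cyp26b1, Rara, Rarg, Crabp1, Crabp2, Aldh1a1 or Aldh1a2, which says only that these letters are not within these windows. Of the 11462 genes of the count table that had a window by symbol, 9 held a DR5 (0.0785%), and 5 of these passed the expression filter. Besides Cyp26a1 and Rarb these were Ice2, with a log2 fold change of 1.11 in DSg (edgeR adjusted p = 0.190), Stox1 with 1.04 (adjusted p = 0.186) and Spg21 with -0.52 (adjusted p = 0.465), named because they complete the set. A match is a description of the sequence, and binding was not measured here.

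The genes whose profiles over the 6 libraries were most like a member were found by the root mean square difference of their centred log2 CPM, among 10926 candidates. For Cyp26a1 the nearest candidate was Rarb (difference 1.01 log2 units, Pearson's r = 0.95 over 6 libraries), followed by Kirrel2 (1.10) and Nphs1 (1.19). These differences were larger than those of any other member, and Cyp26a1 and Rarb had few counts in USg and Spc. For Rarb the nearest were Pcdh9 (0.69), Kirrel2 (0.77) and the receptor gene Kit (0.89), a marker of differentiating spermatogonia. For Cyp26b1 they were Ero1a (0.23), an enzyme of protein folding, Dclre1c (0.25) and Fam161a (0.37). Aldh1a1 was nearest to Mx2 (0.16), Acsbg1 (0.26) and Pmp22 (0.28), and Aldh1a2 to Kif3b (0.11), Uap1 (0.14) and Sdr39u1 (0.15). Crabp1 was nearest to Etv4 (0.25), Fscn1 (0.25) and Traf4 (0.26), and Rara to Mcee (0.10), Rfc5 (0.14) and Snn (0.15). These genes share libraries and depth with the members, and likeness over 3 groups is a description.

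Upstream of the members stood a list of genes for retinoid uptake, storage and the formation or reduction of retinal. Of these 29 of 30 were in the table and 18 passed the filter. The list mixes enzymes that form retinal with enzymes that reduce it, and so does not measure supply. In DSg 0 of 18 rose and 0 fell against USg, beside 0.565% and 1.92% of all genes. The median log2 fold change was 0.46, beside 0.01 over all genes. In Spc 5 rose and 3 fell against USg, where 17.9% of all genes were higher and 16.6% lower (median -0.46, beside -0.04). Against DSg 3 rose and 3 fell, where the shares of all genes were 14.8% and 11.7% (median -1.15, beside -0.03). Lrat, which stores retinol as an ester, rose from 0.757 ± 0.567 CPM (SD, n = 2) in USg to 10.6 ± 0.158 in Spc (3.95 ± 1.05, edgeR adjusted p = 0.0190). Rdh11, a retinal reductase, rose to 85.7 ± 18.0 CPM in Spc (3.81 ± 0.43 over USg), and was also higher than in DSg (2.30 ± 0.40). Bco1, which makes retinal from carotene, fell to 1.78 ± 0.564 from 14.1 ± 0.901 CPM (-2.98 ± 0.62).

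Rbp4, the carrier of retinol in blood, was lower in Spc than in USg (-2.82 ± 0.55) and DSg (-3.37 ± 0.56). Rdh13 fell from 42.1 ± 8.18 CPM in DSg to 10.6 ± 0.568 in Spc (-1.99 ± 0.39). The value of Rbp4 was -3.59 against USg and -4.10 against DSg without Spc 2, and -2.68 against DSg without DSg 1. Lrat was at 4.74 without USg 1 and lost its call without USg 2 (3.17), and Rdh13 lost it without Spc 1 or Spc 2. Of 4 tested genes with other roles in retinoic acid synthesis, binding or breakdown, 0 passed for DSg vs USg. Over all genes 0.565% were higher in DSg and 1.92% lower. Cyp1b1, a P450 that can form retinoic acid from retinol, rose from 1.45 ± 0.965 CPM in USg to 137 ± 14.3 in Spc (6.38 ± 0.51, edgeR adjusted p = 0.000135), and it was 4.81 ± 0.46 higher than in DSg. Its rise over USg was 7.43 without USg 2. Cyp2s1, a P450 reported to metabolise retinoic acid, fell from 53.0 ± 11.1 to 11.8 ± 3.61 CPM (-2.17 ± 0.38), a call that ended without Spc 1. The sums of the Sertoli, Leydig, peritubular myoid, fibroblast and macrophage marker lists were also higher in Spc than in the line. Only that of the endothelial list was lower. The part of somatic cells in the differences of Cyp1b1, Cyp2s1 and the other genes named here was not tested.

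Of 13 tested RXR partners and co-regulators, 1 rose and 0 fell in DSg, beside 0.565% and 1.92% of all genes. The 1 gene was the coactivator Ncoa1, which stood at 135.7 ± 8.45 CPM in DSg and 35.7 ± 10.0 in USg. The difference was 1.93 ± 0.34 (edgeR adjusted p = 0.0294). Its adjusted p ran from 0.000110 to 0.191 over 13 alternatives, and the fit of only 4 libraries ended its call, as did leaving out USg 2, DSg 1 or DSg 2. In Spc 2 of 13 rose and 5 fell against USg, beside 17.9% and 16.6% of all genes, and 2 rose and 5 fell against DSg, beside 14.8% and 11.7%. The receptor partner Rxra fell from 59.1 ± 12.1 CPM in USg to 8.35 ± 0.729 in Spc (-2.82 ± 0.37, adjusted p = 0.000764), and from 34.2 ± 4.94 in DSg (-2.03 ± 0.36). Ncoa1 was higher in Spc than in USg as well (2.03 ± 0.34).

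Against USg the corepressor scaffold Sin3a fell (-1.26 ± 0.28), and against DSg the coactivator Ncoa2 fell (-1.45 ± 0.29) and the methyltransferase Carm1 rose (1.30 ± 0.39). Leaving out Spc 1 or Spc 2 ended the calls of Sin3a, Ncoa2 and Carm1. Leaving out Spc 2 ended that of Rxra against DSg, and leaving out DSg 1 or DSg 2 ended that of Carm1.

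**Figure D4:**
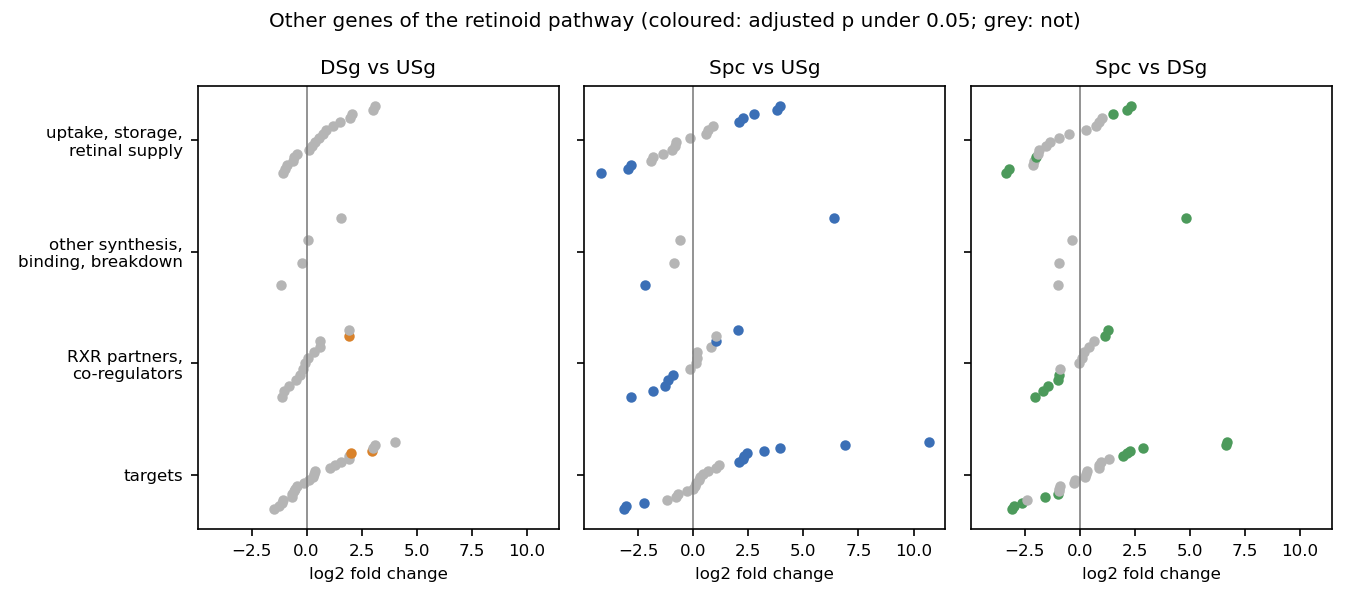
Log2 fold changes of the other retinoid pathway genes that passed the filter, by list and comparison, 1 point a gene. Coloured points have an edgeR adjusted p under 0.05 and grey points do not: 3 distinct genes (Kit, Rec8 and Ncoa1) are coloured for DSg vs USg, and many more on both sides for Spc. The rightmost point for Spc vs USg is Rarres2, which had no count in USg, so its fitted value depends on the prior count.

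A list of genes described elsewhere as retinoic acid targets included germ cell genes such as Kit, Rec8, Sohlh1 and Sohlh2. Of its 36 genes 27 were in the table, and 24 were tested, besides Cyp26a1, Cyp26b1 and Rarb. In DSg 2 rose and 0 fell, beside 0.565% and 1.92% of all genes (median log2 fold change 0.30, beside 0.01 over all genes). The 2 were Kit (2.96 ± 0.31, edgeR adjusted p = 0.00556) and the meiotic cohesin gene Rec8. Rec8 rose from 7.55 ± 1.87 to 29.6 ± 3.04 CPM (2.00 ± 0.38, adjusted p = 0.0364). The call of Kit ended without DSg 1 or DSg 2, and that of Rec8 there, when USg 2 was left out and in the 4-library fit (adjusted p from 0.00291 to 0.198 over 13 alternatives). The target gene Stra8 was not found by symbol in the count table and was not analysed here. In Spc 8 of 24 rose and 3 fell against USg, beside 17.9% and 16.6% of all genes, and 6 rose and 5 fell against DSg, beside 14.8% and 11.7%.

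Tgm2, a transglutaminase, rose from 9.14 ± 0.922 CPM in USg and 11.0 ± 1.90 in DSg to 1106 ± 98.6 in Spc (6.90 ± 0.38 and 6.63 ± 0.37). Rarres2, the chemerin gene, had 0 counts in USg, 3 in DSg and 492 in Spc. Against the floor of 3 counts over the group it was at least 139-fold higher in Spc than in USg, and the ratio to DSg was 105 (95% exact binomial interval 35.7 to 511, for counting error only). All 3 counts were in DSg 2, under the olfactory receptor level of that library, and the fitted value against DSg ran from 6.05 without Spc 2 to 10.72 without DSg 2. Gadd45g was higher in Spc than in USg (3.19 ± 0.83, and 4.59 without USg 2 or 2.57 without Spc 1). Hoxb4 (-3.09 ± 0.83) and Kit (-2.96 ± 0.31) were lower in Spc than in DSg, Hoxb4 losing its call without DSg 1, Spc 1 (-2.41) or Spc 2 (-4.07). Tgm2 and Rarres2 were high in Spc, as was Aldh1a1, while Cyp26a1, Cyp26b1 and Rarb were low in the same libraries. Against USg, higher and lower somatic markers numbered 5 and 0 (Sertoli), 5 and 0 (peritubular myoid) and 3 and 0 (fibroblast). They numbered 3 and 0 for macrophage, 1 and 0 for Leydig and 1 and 2 for endothelial markers. Over all genes 17.9% were higher in that comparison and 16.6% lower. The part of somatic cells in these differences was not tested. The members of the target list differed in direction between Spc and DSg, and no direction is given for it.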

How the data were processed

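The members and gene lists were chosen with earlier results of these data known. For 6 RNA libraries the authors deposited whole-number read counts by gene symbol, with no normalization. Per the submitters' processing notes, the tools included edgeR 3.2.4, HOMER, Picard 1.127, Subread 1.4.6 with featureCounts, and Bowtie2 2.2.3 and STAR 2.5.3a, with builds rn6 and rn5. The annotation, the strand setting and the tool behind these counts were not given in the sources used here. Reads of overlapping genes may be shared or lost. A further 2 Foxa2 immunoprecipitation samples were not analysed here.

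Genes were filtered with filterByExpr (minimum count 10, minimum total count 15), scaled by TMM and fitted by edgeR 4.0.16 in R 4.3.3 (glmQLFit, glmQLFTest) in 1 model of 6 libraries with 3 residual degrees of freedom. Tests were two-sided, with Benjamini-Hochberg adjustment over 12210 genes and a threshold of 0.05. An SE was obtained by dividing a log2 fold change, without its sign, by the root of its F. Alternatives were RLE and total-count scaling, no filter, DESeq2 1.42.0, a fit of the 4 libraries compared, a replicate block and each of 6 libraries left out. Leaving out ribosomal RNA genes, and running the alternatives for genes outside the 9, were added after the data were seen.

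All 9 members were named. Of each other list, up to 4 genes past the threshold with the largest fold change and at least 5 CPM in the higher group were named per comparison, except that some are not reported here. Of each member past the threshold in any comparison, the 3 genes with the nearest profile (log2 CPM with a prior count of 2, highest group mean of at least 5 CPM, with unnamed loci and microRNA, small nucleolar RNA and olfactory receptor genes left out) were named. List symbols absent from the table were matched through synonyms in the RefSeq table of GRCr8. Levels are not compared between genes, since no transcript lengths were used.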

Additional observations from a re-analysis of the deposited data

How the results depend on the processing

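Of 349 values of the 9 genes under alternatives, 301 kept their direction and side of the threshold, 17 were no longer past it, 11 were newly past it and 20 changed sign, 0 of them after a call. Of 377 values of other named genes, 348 kept both and 29 lost their call. For DSg vs USg the 2 calls among the 9 genes became 4 with no filter and 1 in the fit of 4 libraries, and 0 to 4 when a library was left out. Leaving out a library gave 3 to 4 calls for Spc vs USg and 3 to 7 for Spc vs DSg. The causes were not tested, except that leaving out a DSg library leaves 1 sample there, assumed to vary like the other groups. Over all genes, DSg vs USg had 303 calls, against 199 with total-count scaling, 1044 with no filter, 748 with DESeq2, 90 with 4 libraries, 604 with the block and 0 to 1501 with a library left out. Spc vs USg had 4214 calls (2258 to 4411 with a library left out) and Spc vs DSg 3239 (1642 to 4289). Total-count scaling moved the median of all genes by 0.15 for DSg vs USg and -0.18 for Spc vs DSg, where 1407 were then higher and 1681 lower, against 1806 and 1433 with TMM.

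Sign changes without a call were Crabp2 for Spc vs DSg with no filter (0.0855), and Rarg for Spc vs DSg with no filter (0.0146) and for DSg vs USg with total-count scaling (0.12) and the block (0.0225). With a library left out, DSg vs USg ran from -1.41 to 0.12 for Aldh1a1, -0.47 to 0.49 for Aldh1a2, -0.18 to 2.77 for Crabp2 and -0.64 to 0.61 for Rarg. Spc vs USg ran from -0.0550 to 2.79 for Crabp2, -0.0389 to 2.25 for Cyp26a1, -1.34 to 2.07 for Rarb and -0.69 to 0.53 for Rarg, and Spc vs DSg from -0.52 to 0.75 for Crabp2.

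The labels do not say that replicates with the same number share anything, and whether they do was not settled: the correlations of their differences between groups were 0.25 (USg and DSg), -0.27 (USg and Spc) and 0.01 (DSg and Spc), and both first libraries of the line had the high ribosomal RNA. With the replicate block 3 of the 9 genes passed for DSg vs USg, Rarb being added, 3 for Spc vs USg and 7 for Spc vs DSg. Depth limits Crabp2 in every library, Aldh1a1 in USg and DSg, and Cyp26a1 and Rarb in USg and Spc.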

Other observations

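Several genes of the retinoid lists stood beside Rarb just above the threshold for DSg vs USg, and were chosen after their values were seen. Stra6, the membrane receptor for retinol carried by Rbp4, had a log2 fold change of 3.03 ± 0.69 (edgeR adjusted p = 0.0576). Sohlh2, a transcription factor gene of differentiating spermatogonia, had 1.31 ± 0.30 (adjusted p = 0.0626), the receptor co-regulator Nrip1 had 1.94 ± 0.48 (adjusted p = 0.0773), and the antiproliferative gene Btg2 had 1.56 ± 0.42 (adjusted p = 0.0955). At the next step lay Rdh11 with 1.51 ± 0.42 and the early growth response gene Egr1 with -1.49 ± 0.42 (both at an adjusted p of 0.103). All genes named here were higher in DSg except Egr1. Where this row of genes ends was also set after the values were seen, so no direction is read from it.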
